A study of Homo sapiens with 3 samples.

Results

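The AP-1 and immediate early transcription factors were examined as a group of 9 genes, FOS, FOSB, FOSL1, FOSL2, JUN, JUNB, JUND, ATF3 and EGR1, in HCT116 cells depleted of PRMT1. The members were taken by gene name, with no threshold on their values, and every non-control probe carrying 1 of these gene names was used. This gave 12 probes of the 58201 non-control probes on the array, and 9 of the 41749 gene names, with 4 probes for ATF3 and 1 for each other gene. HCT116 is an established human colorectal carcinoma line. RNA from control cells (NC, a scrambled control), from cells with a first PRMT1 knockdown (PRMT1-KD1) and from cells with a second (PRMT1-KD2) was hybridised to 1-colour Agilent arrays of 60-base probes, with 1 array per group. All cells were grown in the same serum-supplemented medium and, per the labels, transfected with the same lipid reagent, and the time from transfection to harvest is not given in the sources used here.

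PRMT1 is the main enzyme that places asymmetric dimethyl marks on arginine residues of histones and other proteins, and the comparison asks how the RNA of these transcription factors stood when its expression was lowered. AP-1 is a family of dimers that bind DNA through a basic leucine zipper. FOS proteins need a JUN partner to bind, JUN proteins can also pair with each other, and ATF3 is a stress-induced zipper protein that pairs with JUN members. EGR1 is a zinc finger factor outside AP-1 that is induced by the same growth factor signals. Immediate early genes are transcribed within minutes of ERK, JNK or p38 kinase activation without new protein synthesis, through factors already bound at their promoters, and many of their messages are short-lived.

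The siRNAs against PRMT1 are shown because the labels give them as the knockdown reagents. They name a pair, of 26 and 19 bases, and do not say which was used for KD1 and which for KD2. The methods of the study also list siRNAs, while its account of the PRMT1 knockdown speaks of short hairpin RNAs, so the kind of reagent behind these arrays is not settled.
PRMT1 siRNA-1: cugaaguccaggucgauggugaaguc
PRMT1 siRNA-2: uuguagucuuuguacugcc

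Promoter sequences of 3 members are shown because they hold the kind of site through which immediate early genes are switched on. They are the 250 bases before the RefSeq transcription start, 5′ to 3′ on the strand of the gene, in build GRCh38.p14: FOS at chr14:75278578-75278827 on the plus strand, EGR1 at chr5:138465229-138465478 on the plus strand and JUN at chr1:58784048-58784297 on the minus strand. Capitals mark matches, on either strand, to the core TGACG of the cAMP response element, the TATA box TATAAA, the serum response element core known as the CArG box, the EGR1 site GCGNGGGCG and the variant AP-1 site TGACATCA, which was added after the JUN sequence had been read.
FOS: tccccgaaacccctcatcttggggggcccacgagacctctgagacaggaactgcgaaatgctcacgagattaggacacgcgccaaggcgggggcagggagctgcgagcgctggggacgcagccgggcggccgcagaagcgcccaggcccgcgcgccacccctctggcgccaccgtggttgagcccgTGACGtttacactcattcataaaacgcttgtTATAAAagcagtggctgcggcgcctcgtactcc
EGR1: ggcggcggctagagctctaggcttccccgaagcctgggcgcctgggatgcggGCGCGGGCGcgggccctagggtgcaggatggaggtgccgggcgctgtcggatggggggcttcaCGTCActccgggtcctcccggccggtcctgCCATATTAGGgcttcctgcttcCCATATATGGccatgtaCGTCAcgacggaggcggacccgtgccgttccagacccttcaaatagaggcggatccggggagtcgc
JUN: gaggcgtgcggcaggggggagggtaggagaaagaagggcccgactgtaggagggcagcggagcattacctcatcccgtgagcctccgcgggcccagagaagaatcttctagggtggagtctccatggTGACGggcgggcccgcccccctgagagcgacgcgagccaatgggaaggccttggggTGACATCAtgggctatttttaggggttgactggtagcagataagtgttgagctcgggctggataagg

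In the FOS promoter the core TGACG lay 64 bases and a TATA box 33 bases before the start. The EGR1 promoter held a pair of CArG boxes, 105 and 83 bases before the start, with TGACG at 135 and 66 bases and an EGR1 site at 198 bases. The JUN promoter held TGACG at 123 bases and the variant AP-1 site at 67 bases. RefSeq gave 9 promoters for 8 of the members, 2 of them for ATF3. The core TGACG was in 7 of these 9 promoters, against 21.2% of all 35116 promoters of the same length and 12 of 31 promoters of other immediate early genes. The full element TGACGTCA, which contains that core, was in 1 promoter, that of JUND, against 1.65% of all promoters. TATAAA was in 4 member promoters (10.7% of all), TGACATCA in 2 (2.38%), the CArG box in 1 (1.16%), GCGNGGGCG in 1 (8.42%) and the consensus AP-1 site TGANTCA in 0 (6.57%). Since TGACATCA was added after the JUN sequence had been read, its match in JUN was known beforehand, and its count is not set against the share of all promoters as a result. A match to such letters is a description of the window and not evidence of binding. Sites more than 250 bases before the start were not searched. The absence of a site, such as the CArG box in FOS, therefore holds for this window only.

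The targeted gene and the cells were checked next. PRMT1 had a normalized log2 signal of 6.01 in NC, 2.75 in KD1 and 1.45 in KD2, or 10.4% and 4.24% of control. Normalized signal here means the log2 processed intensity minus the 75th percentile of its array. Of 10 epithelial markers, 7 were well above background on every array, and VIL1, CEACAM5 and CDH17 were not on any. Of 6 fibroblast markers, COL1A1 alone was above background. Of 4 leukocyte markers on the array, 1 was above background on NC and KD1 and 2 on KD2, where PTPRC was added, and CD3E was on none, while 2 of 4 endothelial markers were above background on every array, without PECAM1 and KDR. The log2 of the summed level was 12.21, 11.81 and 11.89 on NC, KD1 and KD2 for the epithelial markers. It was 1.59, 1.86 and 2.20 for the fibroblast markers, -0.25, -0.14 and 0.33 for the leukocyte markers and -0.61, 0.14 and -0.32 for the endothelial markers. The part of these shifts in the results below was not tested.

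All 12 probes of the 9 genes were well above background on all 3 arrays. None of their 36 spots was saturated or marked as an outlier. The pixel scatter of these spots lay between the 1.2 and the 96.2 percentile of the 500 spots of like brightness, with 1 spot, FOSB on NC, above the 95th. There was no replicate array, so no single-array difference has a replicate check or a p-value. Differences were read against the spread between the knockdowns, which share a target. KD1 minus KD2 had a robust SD of 0.38 log2 units across the 17054 genes that were above background on each of the 3 arrays. This spread leaves out the variation of the NC array, which every change against NC contains. Spots of 1 probe repeated within an array had a median SD of 0.044, 0.049 and 0.038 on NC, KD1 and KD2, which covers spot error only. In a bulk sample, fewer cells with a transcript and less transcript per cell cannot be told apart.

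FOS, ATF3 (by its brightest probe, 1 of 4) and EGR1 were higher than in NC by more than 1.5-fold (0.585 log2 units) in both knockdowns, and no member was lower by that fold in either. In KD1, 3 of the 9 members were higher and 0 lower, where 13.2% of all 19231 genes measured were higher and 12.8% lower (26.1% in either direction). In KD2, 5 of 9 were higher (FOS, FOSB, JUN, ATF3 and EGR1) and 0 lower, where 9.56% of 19421 genes were higher and 10.7% lower (20.2% in either direction). Both knockdowns are compared with the same NC array, and 3 of 9 members were higher in both against 5.00% of 18602 genes, with 0 lower in both against 5.36%. The median change of the members was 0.51 in KD1 and 0.63 in KD2. For the 17054 genes above background throughout it was -0.04 in KD1 and -0.07 in KD2. Of the 9 genes, 8 lay above 0 in KD1, 8 in KD2 and 7 in both. Of the 17054 genes, 7908 lay above 0 in KD1 and 7420 in KD2, and those above 0 in both were not counted. Because NC is shared, the signs of the changes in KD1 and KD2 are not independent.

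**Figure D1:**
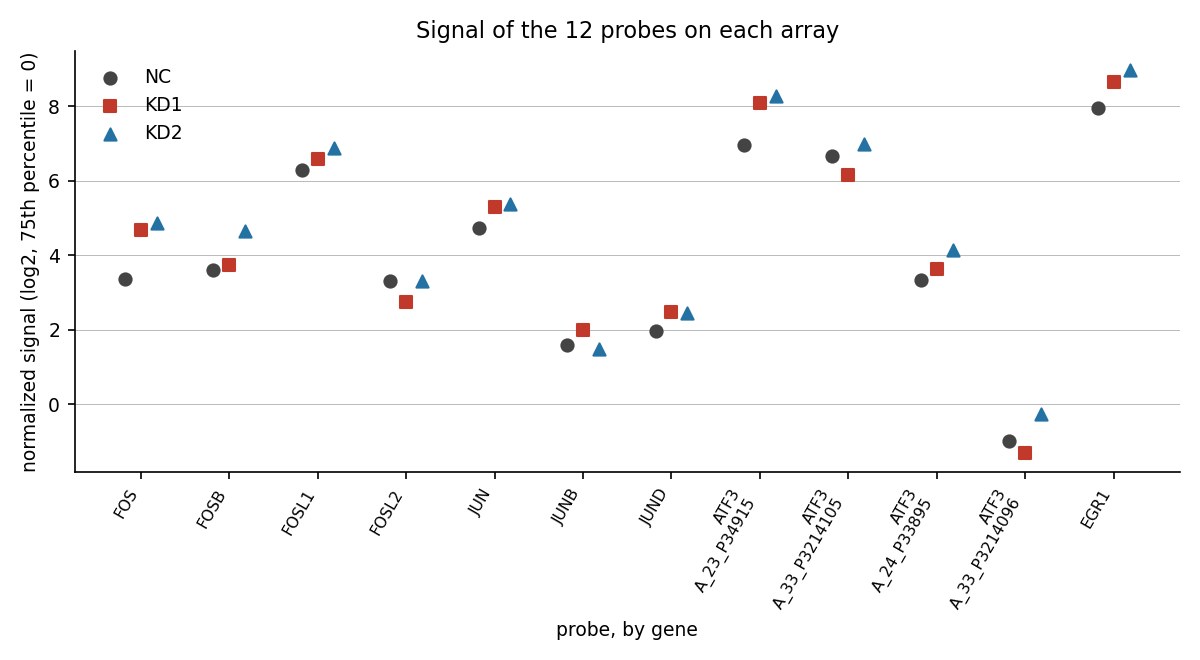
Normalized signal (log2, vertical axis) of the 12 probes of the 9 genes (horizontal axis) on the NC, KD1 and KD2 arrays, 1 symbol per array. FOS, EGR1 and the ATF3 probe A_23_P34915 lay higher on both knockdown arrays than on NC, FOSB stood apart on KD2 and FOSL2 on KD1; heights of different probes are not comparable.

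Changes in the FOS family ran from -0.54 to 1.51. FOS (probe at chr14:75748214-75748273, hg19, as are all probe positions), the prototype immediate early gene, had a processed intensity of 1202 in NC, 3911 in KD1 and 3667 in KD2, and normalized signals of 3.36, 4.68 and 4.87. Both knockdown arrays were thus higher than NC, by 1.31 log2 units (2.48-fold) in KD1 and 1.51 (2.84-fold) in KD2, and they differed from each other by 0.19. FOS was the member furthest from NC, and 1.99% of all genes lay above its change in KD1 and 0.84% in KD2.

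FOSB (probe at chr19:45978205-45978264), a FOS paralogue best known from neurons, had unlike values in the 2 knockdowns. Its signal was 3.61 in NC, 3.75 in KD1 and 4.66 in KD2, so that KD1 was close to NC (0.14) and KD2 was higher (1.05, or 2.07-fold). It was the 1 member past 1.5-fold between the knockdowns themselves, lower in KD1 by 0.91 log2 units, where 8.85% of 19544 genes were lower and 9.84% higher in KD1 (18.7% in either direction). FOSB also was the member whose NC spot had the highest pixel scatter, at the 96.2 percentile. Its KD2 spot was at the 93.2 percentile and its KD1 spot at the 59.0. The part of this scatter in its changes was not tested.

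FOSL1 (probe at chr11:65660098-65660157), which encodes FRA-1, a FOS protein without a transactivation domain that is raised in many invasive carcinomas, was 6.30 in NC, 6.57 in KD1 and 6.88 in KD2. Its change of 0.28 in KD1 was within the robust SD of 0.38 between the knockdowns. It was above the like SD of 0.23 over the 500 genes nearest in brightness. Both spreads leave out the variation of the NC array. In KD2 its change of 0.584 lay just under the 1.5-fold line, and 7 of 11 alternative settings put it over. FOSL2 (probe at chr2:28637175-28637234), which encodes the related FRA-2, was 3.30 in NC, 2.76 in KD1 and 3.31 in KD2. It was the 1 member with a lower value in KD1, by 0.54 log2 units, which did not reach 1.5-fold, and in KD2 it stood at the level of NC (0.01).

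The JUN family had smaller changes, from -0.11 to 0.63. JUN (probe at chr1:59246511-59246570), the usual partner of FOS in the classical AP-1 dimer, was 4.75 in NC, 5.29 in KD1 and 5.37 in KD2. Its changes of 0.54 and 0.63 lay on either side of the 1.5-fold line and differed from each other by 0.09. JUND (probe at chr19:18391371-18391430), the member of the family that is expressed in most resting cells, was 1.96, 2.47 and 2.45, so that both knockdowns were higher by a like amount (0.51 and 0.49, or 1.42-fold and 1.40-fold) without passing the line. JUNB (probe at chr19:12902998-12903057), which can oppose JUN at some promoters, was 1.59 in NC, 2.0 in KD1 and 1.48 in KD2, a change of 0.40 in KD1 and -0.11 in KD2. JUN and JUND each exceeded the robust SD of 0.38 in both knockdowns, and JUNB exceeded it in KD1. That SD leaves out the variation of the NC array, which is the reference of both knockdowns, so exceeding it does not establish a change.

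EGR1 (probe at chr5:137804891-137804950), a zinc finger activator inducible by ERK among other kinases, had a processed intensity of 29013 in NC, 60904 in KD1 and 63112 in KD2. Its normalized signal was 7.96, 8.64 and 8.98. The change was 0.68 (1.60-fold) in KD1 and 1.02 (2.02-fold) in KD2, with the knockdowns 0.34 apart. Of all genes, 10.3% lay above EGR1 in KD1 and 2.73% in KD2. Kinase activity was not measured on these arrays. By western blot, the study reported less phosphorylated ERK and AKT in HCT116 cells after PRMT1 knockdown, with total protein unaffected. How that relates to the RNA values here was not tested.

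**Figure D2:**
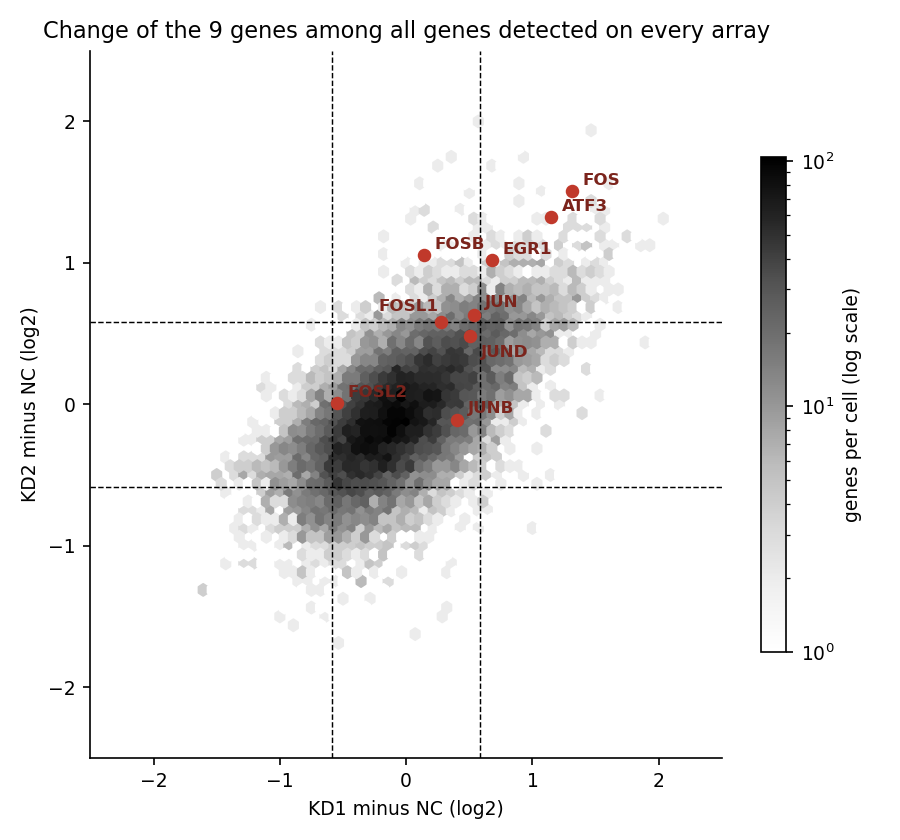
Change against NC in KD1 (horizontal axis, log2) and in KD2 (vertical axis, log2) for the 9 genes (red) and for the 17054 genes above background on every array (grey, darker for more genes per cell, log scale). Dashed lines mark 1.5-fold, both axes share the NC array, genes beyond the axes are not drawn, and FOS, ATF3 and EGR1 lie in the upper right corner.

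ATF3, a repressor or activator induced by many stresses and by the unfolded protein and p53 pathways, was represented by its brightest probe, A_23_P34915, at chr1:212793856-212793915. This was 6.95 in NC, 8.10 in KD1 and 8.27 in KD2, a change of 1.15 (2.22-fold) and 1.32 (2.50-fold). The other ATF3 probes gave other answers. Sequences of 2 of them, which lie in the coding sequence, are shown because their changes in KD1 had opposite signs. Both are 60 bases long and on the plus strand of chromosome 1 in build hg19, at 212788502 to 212788561 and at 212792837 to 212792896.
A_33_P3214105: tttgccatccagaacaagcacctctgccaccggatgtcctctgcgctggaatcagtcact
A_24_P33895: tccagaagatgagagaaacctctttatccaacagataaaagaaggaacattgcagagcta

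Probe A_33_P3214105 was 6.66 in NC, 6.16 in KD1 and 6.99 in KD2, lower in KD1 by 0.51 and higher in KD2 by 0.32. Probe A_24_P33895 was 3.33, 3.64 and 4.15, higher by 0.31 and by 0.82. Probe A_33_P3214096, which the files list against 2 RefSeq transcripts where they list each other ATF3 probe against 4, was -0.98, -1.30 and -0.25, lower in KD1 by 0.31 and higher in KD2 by 0.73. Ordered along the gene, with distances of 0, 4017, 4335 and 5354 bases that include introns, the change was larger at each further probe in both knockdowns: -0.51, -0.31, 0.31 and 1.15 in KD1 and 0.32, 0.73, 0.82 and 1.32 in KD2. The mean over the 4 probes was 0.16 in KD1 and 0.80 in KD2, so in KD1 the call of ATF3 as higher rested on 1 probe of 4. The ATF3 probes are also listed against different transcripts. A_33_P3214105 has a transcript that no other ATF3 probe has, and lacks another that the other ATF3 probes share. The part of transcript usage in the differences between probes was not tested.

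The last ATF3 probe exceeded the first by 1.65 in KD1 and 1.00 in KD2. Over 3589 genes with several probes above background, the same difference had a median of 0.16 and a robust SD of 0.53 in KD1, and a median of 0.03 and a robust SD of 0.36 in KD2. Of these genes, 1.25% had a larger difference than ATF3 in KD1 and 1.95% in KD2. The other 8 members had 1 probe each, so this check could not be made for them, and the part of RNA integrity in their changes was not tested.

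**Figure D3:**
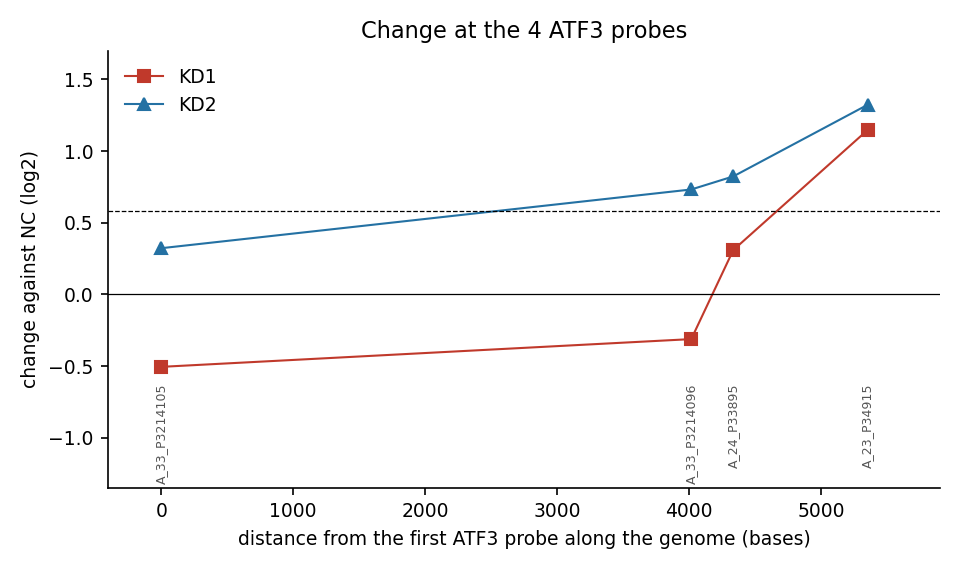
Change against NC (log2, vertical axis) at the 4 ATF3 probes by distance from the first probe along the genome in bases (horizontal axis, introns included), 1 array per symbol, with the 1.5-fold line dashed. KD1 passed from -0.51 to 1.15 and KD2 from 0.32 to 1.32.

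When KD1 and KD2 were taken as 2 samples of 1 group against the lone NC array in a limma fit across 20050 genes, 0 members had a Benjamini-Hochberg adjusted p under 0.05. The same fit called 0 of all genes (0.00%), and 3 members and 1502 genes (7.49%) had an unadjusted p under 0.05. FOS had a log2 change of 1.41 with an SE of 0.31 (limma adjusted p = 0.307, higher in 2 of 2 knockdowns). ATF3 had 1.24 with an SE of 0.31 (limma adjusted p = 0.404) and EGR1 had 0.85 with an SE of 0.32 (limma adjusted p = 0.649). The other members had adjusted p-values from 0.685 for JUN to 0.944 for JUNB. The fit takes the unmeasured spread of NC to be that of the knockdowns. Over the alternative settings the lowest adjusted p of a member ran from 0.000706 with normexp background correction, where 2 members and 196 genes were called, to 0.471 without a filter.

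The genes whose pattern over the 3 arrays was closest to that of FOS, the member with the largest mean change, were sought among 2325 genes of like brightness with a RefSeq symbol. Likeness was the Euclidean distance between the pairs of changes in KD1 and KD2. The nearest was GANAB (1.47 and 1.41, distance 0.18), which encodes a subunit of glucosidase II of the endoplasmic reticulum. TERF2IP (1.45 and 1.19, distance 0.35), which encodes the telomere protein RAP1, and HABP4 (1.38 and 1.15, distance 0.36) followed.

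Many of the other immediate early genes were also higher. Of 32 listed, 30 were measured, and 14 were higher and 0 lower than NC by 1.5-fold in KD1, against 13.2% and 12.8% of all genes. In KD2, 18 were higher and 1 lower, against 9.56% and 10.7%. The median change was 0.57 in KD1 and 0.71 in KD2. Among the 29 above background on all arrays, 9 passed the fold upwards in both knockdowns and 0 downwards. Of the 18602 genes measured in both comparisons, 5.00% passed upwards in both and 5.36% downwards. Both changes use the same NC array, and the list was chosen with earlier results of these data known. CYR61, a secreted matricellular protein, was 4.49 in NC, 6.08 in KD1 and 5.85 in KD2, a change of 1.59 and 1.35. KLF10, a zinc finger factor induced by TGF-beta, changed by 1.63 and 0.82. EGR4, a paralogue of EGR1, changed by 0.89 and 1.54, and DUSP1, a phosphatase that switches off MAP kinases, by 1.03 and 1.10.

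The remaining 5 of the 9, named after their values had been seen, were CSRNP1, KLF6, MCL1, MYC and IER2. Their changes ran from 0.59 for IER2 to 1.07 for CSRNP1 in KD1, and from 0.74 for MYC to 1.00 for IER2 in KD2. SRF, which encodes the serum response factor that binds CArG boxes, was not well above background on NC and was on both knockdown arrays. Its signal was low, at -1.30 in KD1 and -2.05 in KD2, and NC was set to its floor of -2.71. Against that floor its change as measured was at least 2.67-fold in KD1 and at least 1.59-fold in KD2. The error of signals this near the floor was not tested. The 1 gene lower in KD2 was NR4A2, an orphan nuclear receptor, at -0.52 in KD1 and -0.60 in KD2. CTGF, a paralogue of CYR61, was -0.04 in KD1 and 0.72 in KD2.

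**Figure D4:**
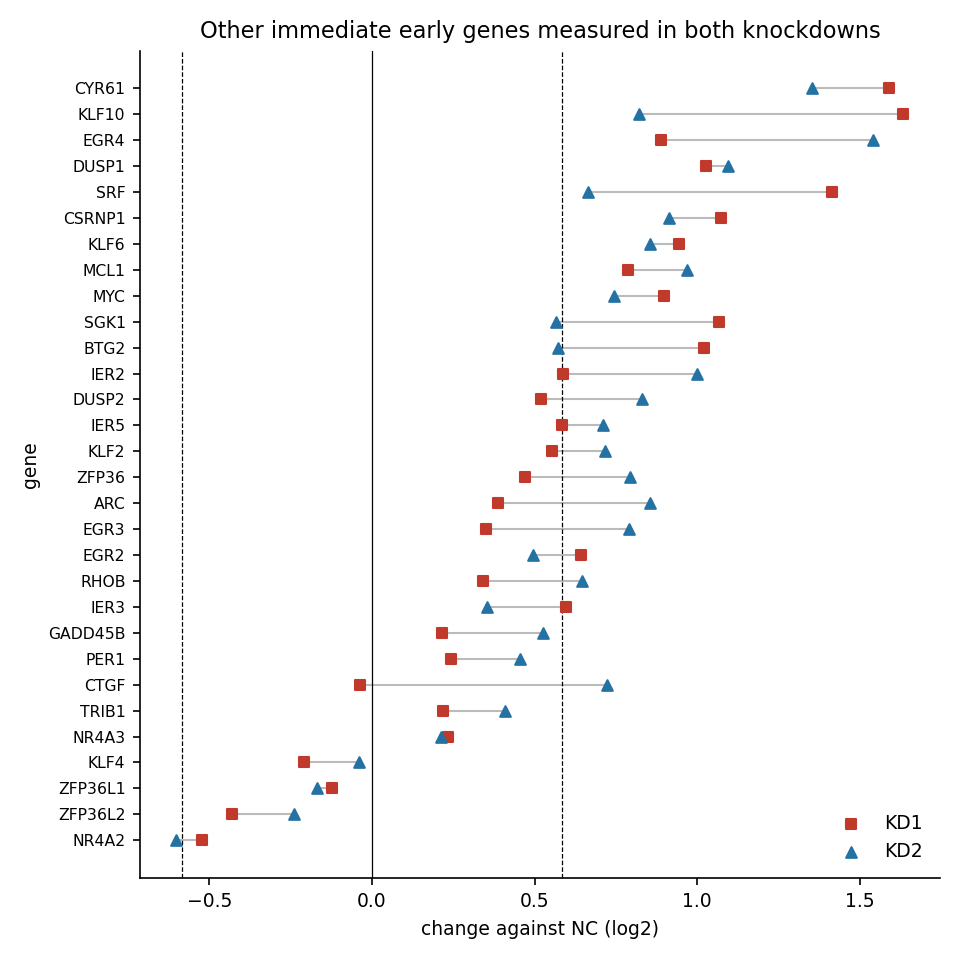
Change against NC (log2, horizontal axis) of the 30 other immediate early genes that were measured (vertical axis, sorted by the mean of both), with KD1 and KD2 joined by a line and dashed lines at 1.5-fold. In KD2, 18 genes lay right of the upper line and NR4A2 left of the lower one; the values of SRF are lower bounds.

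The other dimer partners of AP-1 proteins gave a mixed picture. Of 20 listed, 18 were measured, with 4 higher and 2 lower in KD1 (22.2% and 11.1%, against 13.2% and 12.8% of all genes). In KD2, 3 were higher and 0 lower (16.7% of the list higher, against 9.56% higher and 10.7% lower of all genes). The median changes were 0.22 and 0.24. MAFK, a small MAF protein without a transactivation domain, was 3.15 in NC, 3.85 in KD1 and 3.92 in KD2, a change of 0.69 and 0.77, past the fold in both.

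Among kinases and factors upstream of the immediate early genes, the share that was higher was close to that of all genes and the share that was lower was smaller. Of 24 listed, 23 were measured, with 3 higher and 1 lower in KD1 (13.0% and 4.35%, against 13.2% and 12.8% of all genes). In KD2, 2 were higher and 1 lower (8.70% and 4.35%, against 9.56% and 10.7%). The median changes were 0.09 and 0.29. The gene past the fold in both was MAP2K1, which encodes the ERK kinase MEK1, at 1.47 in NC, 2.84 in KD1 and 2.30 in KD2, a change of 1.37 and 0.84.

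Of the genes known as AP-1 or EGR1 targets, a larger share than of all genes was higher in KD1, and a smaller share differed in KD2. Of 28 listed, 20 were measured in KD1, with 5 higher and 1 lower. These were 25% and 5% of those measured, against 13.2% and 12.8% of all genes. In either direction the share was 30%, against 26.1% of all genes. In KD2, 21 were measured, with 1 higher and 0 lower. The share higher was 4.76%, against 9.56% higher and 10.7% lower of all genes (20.2% in either direction). The lower gene, MMP7, was not well above background on KD1. The median change was 0.38 in KD1 and 0.15 in KD2. The collagenase gene MMP1, a textbook AP-1 target, was not well above background on any array. Counts of this and the other lists are descriptions, and no set was tested.

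Scaling shifted all genes together. The median of all genes above background on the arrays lay at -0.11 to 0.57 in KD1 and at -0.22 to 0.22 in KD2 over the settings, with the upper ends at spike-in scaling. Relative to that median, the median of the members was 0.44 to 0.66 in KD1 and 0.68 to 0.76 in KD2. FOS and EGR1 passed 1.5-fold in both knockdowns in all 11 alternative settings with 1 value per gene. These settings are not independent checks. For a gene with 1 probe above background on all arrays, dropping the filter or averaging over probes returns the reported value. Several others only move all genes of an array by 1 amount. FOSB passed in KD2 in 11 of 11, and was lower in KD1 than in KD2 past the fold in 11 of 11. ATF3 passed in 10 of 11 in KD1 and 11 of 11 in KD2, and the exception was the mean over its probes. JUN passed in KD2 in 10 of 11 and in KD1 in 4 of 11. FOSL2 passed 1.5-fold downwards in KD1 in 2 of 11 and changed sign to 0.07 with spike-in scaling, and JUNB in KD2 was above 0 in 2 of 11.

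**Figure D5:**
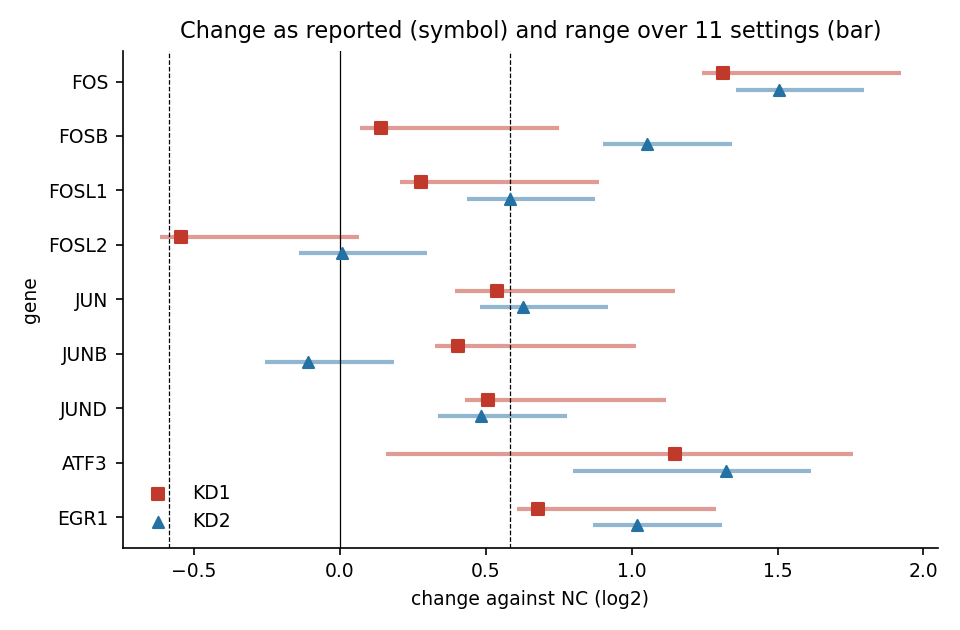
Change against NC of each gene (log2, horizontal axis; gene, vertical axis) in KD1 and KD2, with the reported value as a symbol, its range over 11 alternative settings as a bar and dashed lines at 1.5-fold. The bars of FOS and EGR1 lie right of the upper line in both knockdowns, and the KD1 bar of ATF3 reaches down to 0.16.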

How the data were processed

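Cy3-labelled RNA of 3 HCT116 samples (NC, KD1, KD2) was read on 1 slide in 1 scan. The authors deposited the scanner output of Agilent Feature Extraction (10.7.1.1 per the labels). The deposited processed intensity was background-corrected per array and not scaled between arrays. The deposited series matrix held the mean processed intensity per probe, unscaled, and was used as an alternative. Probe positions are in build hg19, and no annotation of that build was used here.

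Control spots and spots marked non-uniform or population outliers were left out. The log2 intensities of a probe were averaged, and the 75th percentile of each array over non-control probes was subtracted. The brightest probe stood for a gene. A gene was measured when well above background on at least 1 array compared, and on an array where it was not, the lowest signal well above background there was its floor. The threshold was 1.5-fold, as in the study's methods, whose p-value needs replicate arrays. The secondary fit used limma (lmFit, eBayes, Benjamini-Hochberg). The members and gene lists were chosen with earlier results of these data known, so no pattern already known from them is independent support. Named genes were PRMT1, the members, up to 4 genes per list with the largest mean change past the fold in both knockdowns, and the 3 genes most like FOS. A few genes that this rule names are not reported here.

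Alternatives were normexp (offset 50), quantile and median scaling, other percentile bases, spike-in scaling (8 probes), series matrix values, other filters, probe summaries, marked spots kept, a fold of 2 and an intensity trend. Subtracting GC and brightness classes, and a percentile over shared probes, were added after the data were seen. Calculations were tested on simulated data. Software was limma 3.58.1 in R 4.3.3, with pandas 2.3.3, matplotlib 3.10.9 and numpy 2.4.6 in Python 3.11.15. Knockdowns of SMARCA4, also made in the study, were not used here. The number of arrays limits the precision.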

Additional observations from a re-analysis of the deposited data

Results flagged for a closer look

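JUNB had changes of opposite sign in the knockdowns, and FOSL2 was lower in KD1 alone, with a KD2 change so close to 0 that its sign has no meaning (-0.14 with median scaling). FOSL2 was lower than NC in KD1 (-0.54) and level with it in KD2 (0.01), a difference of -0.55 log2 units. JUNB was higher in KD1 (0.40) and lower in KD2 (-0.11), a difference of 0.51 log2 units. With 1 array per group the difference was not tested for either gene, and neither reached 1.5-fold between the knockdowns as reported, while each did so in 3 of 11 alternative settings. With spike-in scaling the changes of both genes were above 0 in both knockdowns, at 0.07 and 0.30 for FOSL2 and at 1.01 and 0.18 for JUNB.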

How the results depend on the processing

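Each group had 1 array, so no array could be left out and no interval can be given. No paired analysis was possible because each group had 1 array. Of 473 single-gene values under the alternatives, 433 stayed within the robust SD of the reported value, 40 moved further and 0 changed sign among those past the fold. The count of members past 1.5-fold in KD1 (3) was 5 with median scaling and with GC and brightness classes subtracted. It was 8 with spike-in scaling and 7 with the series matrix values. With quantile normalization and with a percentile over detected probes it was 4, of which 3 were higher and 1 lower. Normexp also gave 4, all higher. The count was 2 with the mean over probes and at a fold of 2. Between the knockdowns the count (1) was 2 with quantile normalization, median scaling, a percentile over detected probes, spike-in scaling, series matrix values, the mean over probes and GC and brightness classes, 3 with every probe on its own and 0 at a fold of 2. Of limma calls among members (0), normexp gave 2, spike-in scaling 1 and an intensity trend 1.

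With spike-in scaling the lists gave, in KD1 and KD2, 12 and 7 dimer partners (reported 6 and 3), 14 and 9 upstream genes (reported 4 and 3) and 14 and 6 targets (reported 6 and 1), and 25 other immediate early genes in KD1 (reported 14). The series matrix values gave 10 dimer partners and 25 other immediate early genes in KD1, 10 and 5 upstream genes, and 13 and 4 targets. At a fold of 2 there were 1 and 1 dimer partners, 7 and 3 other immediate early genes (KD2 reported 19), 1 and 0 upstream genes, and 1 and 0 targets. With GC and brightness classes subtracted there were 5 dimer partners in KD2 and 3 and 2 targets. Upstream genes were 2 in KD1 with the mean over probes, and 8 and 6 with every probe on its own. Targets in KD2 were 0 with normexp, 3 with quantile normalization and with a percentile over detected probes, 2 with median scaling, 2 without a filter and 2 with every probe on its own. Unscaled and spike-in values, median scaling and a percentile over detected probes move all genes of an array by 1 amount, and every probe counts more values per gene. For the other alternatives the cause was not tested.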
